A study of Mus musculus with 14 samples.

Results

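JAK kinases and STAT factors carry the signals of cytokine receptors, and 9 of their genes were examined in mouse regulatory T cells (Tregs) with and without the microRNAs miR-15 and miR-16. The members were taken by gene symbol from the table of the whole series: the kinases Jak1, Jak2 and Jak3 and the factors Stat2, Stat3, Stat4, Stat5a, Stat5b and Stat6, 9 of 48363 genes with values. Each of the 9 passed the filter on low values, which asked for at least 10 normalized counts in at least 2 libraries and left 16241 genes for testing. RNA was sequenced from live CD4+ Tregs that expressed FOXP3-YFP and were sorted from pooled spleen and inguinal, axillary and brachial lymph nodes of untreated mice. Bulk Tregs came from Foxp3-Cre mice whose miR-15/16 alleles were floxed (fl/fl; cKO, 5 libraries) or intact (wt/wt; WT, 4 libraries), and Tregs of the wt/wt genotype were also split by surface CD25, the alpha chain of the IL-2 receptor, into CD25hi (3 libraries) and CD25lo (2 libraries). Every mouse carried the YFP-Cre fusion in the Foxp3 gene, so that Cre acts only once a cell has expressed Foxp3. The libraries are labelled as biological replicates, and the labels give neither the ages of the mice nor whether the sorted and the bulk Tregs came from the same animals.

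A cytokine that binds its receptor brings together JAK kinases held on the receptor's tails, and these phosphorylate the receptor and then STAT proteins, which pair, enter the nucleus and switch genes on. JAK1 and JAK3 sit on receptors that contain the common gamma chain, among them those for IL-2, IL-7, IL-4 and IL-21, while JAK2 serves receptors such as those for IL-12, IL-6 and interferon gamma. In Tregs, IL-2 acting through STAT5 sustains Foxp3 and the cells themselves. STAT3, STAT4 and STAT6 are the classical effectors of IL-6 or IL-10, IL-12 and IL-4, and STAT2 acts in the complex ISGF3 after type I interferon. The activity of these proteins is set largely by phosphorylation, which RNA levels do not measure.

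The libraries held between 30055573 and 35226685 reads in genes. The hairpin genes Mir15a, Mir15b, Mir16-1 and Mir16-2 are listed at 0 in all 14 libraries, so the deletion could not be read from the targeted genes themselves. Dleu2, the noncoding host of miR-15a and miR-16-1, had 2519 ± 233 (n = 5, SD) normalized counts in cKO and 711 ± 449 (n = 4, SD) in WT Tregs, and Smc4, the host of the other cluster, had 41009 ± 1584 (n = 5, SD) and 40463 ± 781 (n = 4, SD). Il2ra, which encodes CD25, spanned 39583 to 41188 normalized counts in CD25hi and 14682 to 15027 in CD25lo Tregs, in the order of the gate. Foxp3, Cd4 and Cd3e were at 14546 normalized counts or more in every library. The 12 genes of a myeloid list summed to between 926 and 6103 normalized counts in WT, 352 and 3715 in cKO, 292 and 705 in CD25hi and 536 and 1191 in CD25lo libraries. Of these, S100a8 was at 0 in 13 of 14 libraries and S100a9 in 12, while Csf1r (553 to 3159 in WT and 128 to 2126 in cKO libraries), Cd68 and Adgre1 were above 0 in all 14, and none of the 10 tested passed in either comparison. The 7 genes of a B cell list summed to between 572 and 876 normalized counts in cKO, 257 and 606 in WT, 265 and 339 in CD25hi and 197 and 299 in CD25lo libraries. Cd79b, part of the B cell receptor, stood at 469.7 to 776 in cKO and 163 to 438 in WT libraries (limma adjusted p = 0.0519). A list of 6 CD8 T and NK cell genes summed to between 843 and 1455 normalized counts in WT, 756 and 872.5 in cKO, 810.5 and 1071 in CD25hi and 1085 and 1322 in CD25lo libraries. None of its 5 tested genes passed in either comparison, with log2 fold changes in cKO versus WT from -1.47 for Eomes to 0.29 for Klrb1c. The part of these lists in the results was not tested, apart from the fit with the myeloid level given below. The levels of Xist and Ddx3y showed that the 5 cKO libraries and WT replicate 3 came from female mice and the others from male mice. WT replicate 4 stood apart from the other WT libraries in 22 immediate early and stress genes, whose mean log2 level was 11.69 there, 13.39 to 13.64 in the other 3 WT libraries, 12.28 to 13.62 in cKO and 11.47 to 12.03 in the libraries sorted on CD25. For some of the results below, a fit with a term for sex or without WT replicate 4 is also given.

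The microRNAs deleted in cKO Tregs share 1 seed, bases 2 to 8 of the mature strand, which pairs with target RNAs. Their mature sequences, credited to RefSeq (GRCm38.p6), are shown because the seed decides which members hold a matching site, and the seed is in capitals.
mmu-miR-15a-5p: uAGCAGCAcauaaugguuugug
mmu-miR-15b-5p: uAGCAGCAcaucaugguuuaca
mmu-miR-16-5p: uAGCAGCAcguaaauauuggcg
The longest annotated 3′ UTR of each member (GENCODE, GRCm38) was searched on the transcript strand for the 7 letters TGCTGCT, which pair with bases 2 to 8, and for GCTGCTA, which pair with bases 2 to 7 and end in an A. Jak2, with a 3′ UTR of 1232 bases, held 2 matches, and Stat2, with 1476 bases, held 1. The other 7 members held none, Stat5b with 2365 bases and Stat3 with 3701 bases among them, and 3536 of 12729 tested genes with an annotated 3′ UTR (27.8%) held a match. The sites in Jak2 and Stat2 are given with 11 bases on either side, on the plus strand of GRCm38, with the letters that pair with the seed in capitals.
Jak2, 3′ UTR, chr19:29312354-29312382: ttgctcatcttTGCTGCTctgttagggcc
Jak2, 3′ UTR, chr19:29312988-29313016: atcatccttcgTGCTGCTccctcttagac
Stat2, 3′ UTR, chr10:128292037-128292065: atgtgaagctcTGCTGCTctaggccatgc
A match of letters is a description of the sequence and not a measured site. Neither gene with a match passed the test in cKO Tregs, as the values below show.

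The kinase Jak1 was the most abundant of the 9 transcripts in every group once the values were divided by transcript length. In WT Tregs it stood at 7273 ± 242 normalized counts per kb of its longest coding transcript (SD, n = 4). Jak3 followed at 3203 ± 199, Stat6 at 2877 ± 235, Stat5b at 2182 ± 117 and Stat3 at 1941 ± 92.8 normalized counts per kb. The lower end held Jak2 at 1516 ± 194, Stat5a at 1253 ± 214, Stat2 at 882 ± 179 and Stat4 at 833 ± 62.3 normalized counts per kb. The ranges of the 4 WT libraries overlapped between the neighbours Jak3 and Stat6, Jak2 and Stat5a, Stat5a and Stat2, and Stat2 and Stat4, so that these pairs were not ordered beyond their spread. Over the 14 libraries Jak1 lay at percentile 99.0 of 16238 tested genes with a transcript length and Stat4, the lowest member, at percentile 82.8. Division by the length of all annotated exons merged put Stat6 above Jak3 and Jak2 above Stat3 in WT Tregs. The merged exons of Stat3 span 9527 bases beside 6042 in its coding transcript, and those of Stat5a span 7133 beside 3888.

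**Figure D1:**
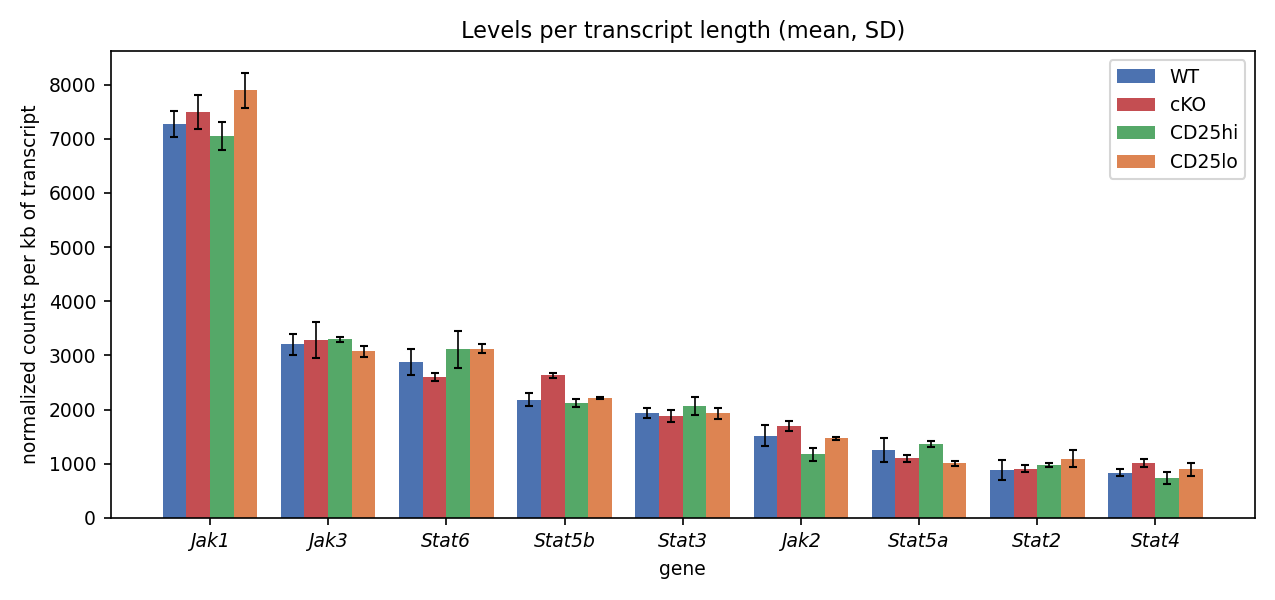
Mean level of each member in normalized counts per kb of its longest coding transcript (y axis, from 0), for WT (n = 4), cKO (n = 5), CD25hi (n = 3) and CD25lo (n = 2) Tregs, with error bars of 1 SD. Jak1 stood at 7273 in WT Tregs, above the other 8 genes in all 4 groups.

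Stat5b, Stat5a and Stat3 lie side by side on chromosome 11. Stat5b (ENSMUSG00000020919, chr11:100780731-100850724, minus strand) and Stat5a (ENSMUSG00000004043, chr11:100859351-100885169, plus strand) are separated by 8626 bases, and the end of Stat5a overlaps the end of Stat3 (ENSMUSG00000004040, chr11:100885098-100939540, minus strand) by 72 exon bases on the opposite strand. The 2 STAT5 genes share 608 windows of 50 bases, the length of the reads, which were 16.44% of such windows in Stat5a together with 23 shared with Stat3, and 11.77% in Stat5b. Reads from these windows cannot be placed in 1 gene by sequence alone, and how the authors counted them is not given in the sources used here. Stat4 shared 28.64% of its windows with the overlapping noncoding gene Gm28177, which had at most 42.1 normalized counts, and Jak3 shared 8.94% with Insl3, which had at most 278. The remaining members Jak1, Jak2, Stat2 and Stat6 shared none. The other members lie elsewhere in the genome (GRCm38), Jak1 at ENSMUSG00000028530, chr4:101152367-101265282, minus strand, Jak2 at ENSMUSG00000024789, chr19:29251828-29313080, plus strand and Jak3 at ENSMUSG00000031805, chr8:71676296-71690575, plus strand. Stat4 lies at ENSMUSG00000062939, chr1:51987148-52107189, plus strand, and Stat2 (ENSMUSG00000040033, chr10:128270559-128292849, plus strand) and Stat6 (ENSMUSG00000002147, chr10:127642986-127660957, plus strand) share chromosome 10.

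In cKO Tregs the data show a rise of Stat5b, while the 3 kinases and the other 5 STAT factors did not pass the test. Stat5b was 1.21-fold higher without miR-15/16 and was the only member called at an adjusted p under 0.05, 1 of 9 against 3.52% of all genes tested. Of the 5830 genes with a mean of at least 1000 normalized counts, which include all 9 members, 7.72% were called. At an unadjusted p under 0.05 there were 3 (Stat5b, Stat4 and Stat6), against 16.1% of all genes. The test was limma on log2(normalized count + 1), with a mean for each of the 4 groups and p-values adjusted by Benjamini and Hochberg over the 16241 genes. The median log2 fold change of the 9 members was 0.04, and that of all genes tested was 0.05. In bulk Tregs a change in the share of cells that express a gene and a change in RNA per cell cannot be told apart.

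**Figure D2:**
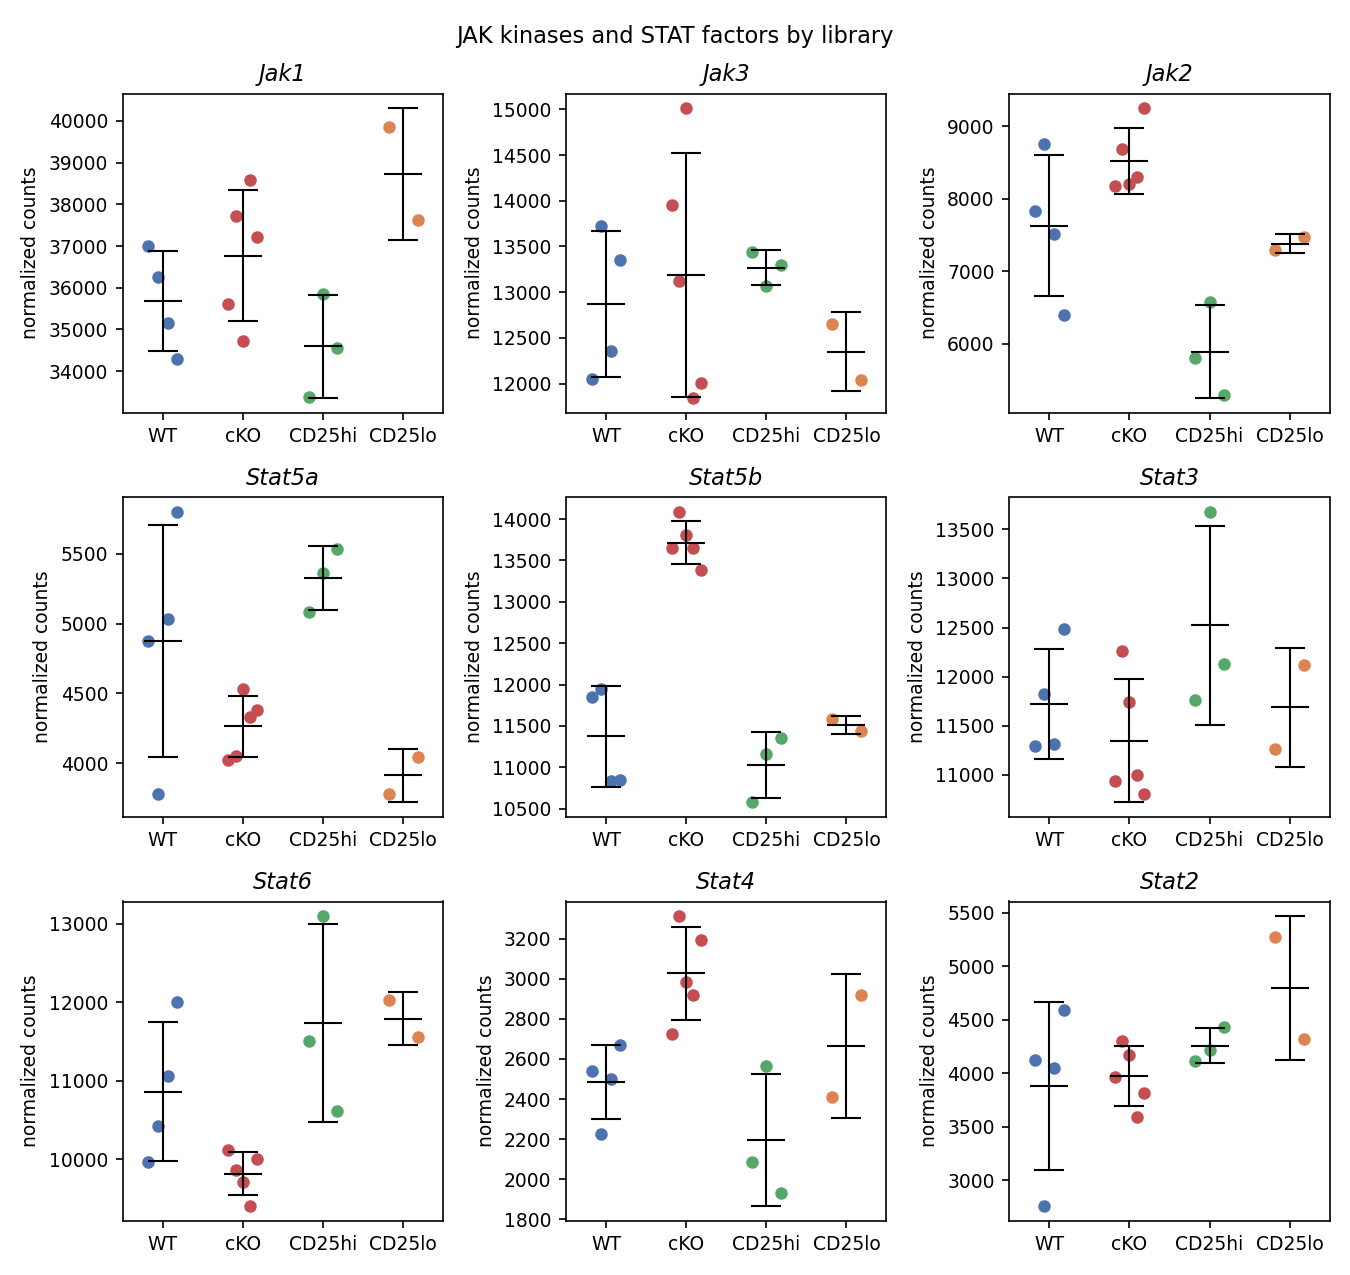
Normalized counts (y axes, each with its own range that does not start at 0) of the 9 members in every library of WT, cKO, CD25hi and CD25lo Tregs; points are libraries, and bars give the mean and 1 SD. The 5 cKO libraries lie above the 4 WT libraries for Stat5b and for Stat4, and the 2 CD25lo libraries lie below the 3 CD25hi libraries for Stat5a.

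Stat5b was the more abundant of the 2 STAT5 transcripts in every library. Its normalized counts were 13650.1, 14086, 13805, 13648 and 13384 in the cKO libraries and 11856, 11952, 10839 and 10853 in the WT libraries. The lowest cKO library stood above the highest WT library. The means were 13714 ± 257 (n = 5, SD) and 11375 ± 612 (n = 4, SD), a log2 change of 0.27 (standard error 0.05, 95% interval 0.16 to 0.38, limma adjusted p = 0.00647). Within the female libraries alone, where WT replicate 3 is the only control, the fit with a term for sex gave a log2 fold change of 0.34 (standard error 0.09), and the limma adjusted p was 0.190 in that fit, which called 0.135% of all genes. Sex and genotype coincide in 8 of the 9 bulk libraries, and the part of sex in the rise was not tested further. Without WT replicate 4 the log2 fold change was 0.25 (limma adjusted p = 0.0168), and with the myeloid level as a term it was 0.28 (limma adjusted p = 0.00619).

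Stat5a, the partner gene whose protein overlaps widely with STAT5B in function, stood lower in cKO Tregs on average but did not pass the test. It had 4023, 4048, 4534, 4333 and 4379 normalized counts in the cKO libraries and 4874, 3782, 5035 and 5798 in the WT libraries. WT replicate 2, at 3782, lay below every cKO library, while the other 3 WT libraries lay above all of them. The means were 4263 ± 221 (n = 5, SD) and 4872 ± 831 (n = 4, SD), a log2 change of -0.18 (standard error 0.09, 95% interval -0.37 to 0.02, limma adjusted p = 0.362). Leaving out WT replicate 2 gave a log2 fold change of -0.29 (limma adjusted p = 0.0371) and leaving out WT replicate 4 one of -0.09 (limma adjusted p = 0.671), so that the call rests on which WT libraries are used.

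**Figure D3:**
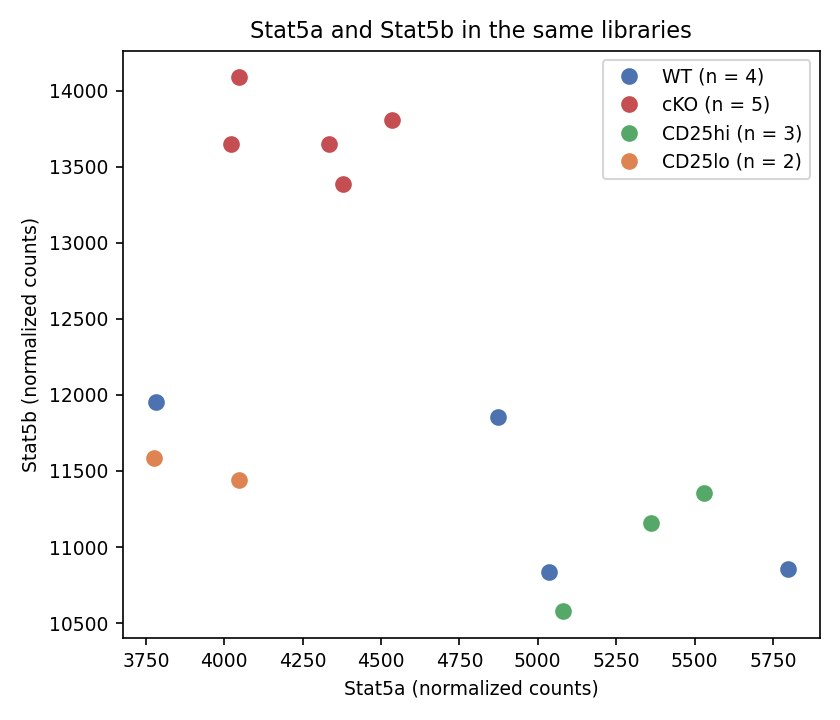
Stat5b (y axis) against Stat5a (x axis) in normalized counts, 1 point per library, with axes that do not start at 0. The 5 cKO libraries lie at 13384 or more in Stat5b, above the other 9, and the 2 CD25lo libraries lie beside WT replicate 2 at low Stat5a.

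On average, the balance of the 2 STAT5 genes differed between the cKO and the WT libraries. Stat5b made up 71.7, 72.2, 69.4, 70.1 and 69.5% of the STAT5 transcripts, in counts per kb of coding transcript, in the cKO libraries and 64.5, 70.2, 61.6 and 58.3% in the WT libraries. WT replicate 2 lay within the cKO range and the other 3 WT libraries below it. Per kb of merged exons the shares were 79.7 to 81.8% in cKO and 70.7 to 80.3% in WT libraries. The level of these shares thus depends on the length used. The log2 ratio of Stat5b to Stat5a counts was 1.69 ± 0.09 (n = 5, SD) in cKO and 1.238 ± 0.32 (n = 4, SD) in WT Tregs, a difference of 0.45 (exact two-sided permutation test, p = 0.0317, adjusted over 3 such values 0.0317). The log2 of the summed counts of Stat5a and Stat5b was 14.13 ± 0.02 in cKO and 13.99 ± 0.05 in WT Tregs, a difference of 0.15 with no overlap of the libraries (exact permutation p = 0.00794, the smallest that the splits of 5 against 4 libraries allow, adjusted 0.0238). Relative to Stat3, the summed STAT5 counts were higher by 0.19 on the log2 scale in cKO Tregs (exact permutation p = 0.0238, adjusted 0.0317). These 3 values share the rise of Stat5b and are not independent of it. All 5 cKO libraries and only 1 WT library, WT replicate 3, came from females, so these tests cannot tell genotype from sex. In WT replicate 3 the ratio of Stat5b to Stat5a was 1.11, against 1.61 to 1.80 in cKO libraries. Its sum was 13.95, against 14.11 to 14.16, and its ratio to Stat3 was 0.49, against 0.56 to 0.72, all on the log2 scale. The part of sex was not tested. The STAT5 ratios were also chosen with earlier results of these data known, so their p-values are not separate support. When each of the 9 libraries was left out in turn, the adjusted exact permutation p stayed under 0.05 in 1 run for the ratio of Stat5b to Stat5a (without WT replicate 2, 0.0268) and in 3 runs for each of the other values (without WT replicate 1, WT replicate 2 or cKO replicate 2), with the direction kept in every run.

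Among the other STAT factors, Stat4, which relays IL-12 signals, had non-overlapping libraries but did not pass the test. Stat4 counts were 2726, 3313, 2984, 2919.6 and 3194 in the cKO libraries and 2541, 2228, 2501 and 2669 in the WT libraries. Each cKO library exceeded each WT library, and cKO replicate 1 exceeded WT replicate 4 by little. The estimate was a log2 change of 0.28 (standard error 0.10, 95% interval 0.09 to 0.48, limma adjusted p = 0.117). Stat4 and Stat5b were thus the 2 of 9 members whose cKO and WT libraries did not overlap, against 8.54% of all genes tested.

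Stat6, the factor of IL-4 signaling, had 10119, 9866, 9709.9, 9405 and 10004 normalized counts in the cKO libraries and 9963, 10420.1, 11057 and 12009 in the WT libraries. The cKO libraries reached 10119 at most and the WT libraries reached up to 12009, with an overlap at the low end, and the estimate was a log2 change of -0.14 (standard error 0.07, 95% interval -0.28 to -0.0009, limma adjusted p = 0.307). Stat3, which responds to IL-6, IL-10 and IL-21, ranged from 10809 to 12262 in cKO and from 11290.4 to 12483 in WT Tregs, a log2 change of -0.05 (standard error 0.06, 95% interval -0.18 to 0.08, limma adjusted p = 0.778). Stat2, the STAT of ISGF3, had 3962, 4300.4, 4174, 3596 and 3817 normalized counts in the cKO libraries and 4119, 2759, 4049 and 4593 in the WT libraries. WT replicate 2 was again the lowest, at 2759, and the estimate of 0.06 (limma adjusted p = 0.872) turned to -0.10 without it (limma adjusted p = 0.647).

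The kinases of the common gamma chain receptors were close between genotypes. Jak1 had 35602, 37722, 34724, 38586 and 37217 normalized counts in the cKO libraries and 36993, 36267, 35163 and 34303 in the WT libraries, and the ranges overlapped over most of their width. Its estimate was a log2 change of 0.04 (standard error 0.05, 95% interval -0.07 to 0.15, limma adjusted p = 0.765). Jak3, which binds the common gamma chain itself, had 13949, 13127, 15015, 11841 and 12006 in the cKO libraries and 12048, 13728, 12355 and 13354 in the WT libraries, a log2 change of 0.03 (standard error 0.07, 95% interval -0.12 to 0.18, limma adjusted p = 0.884). The cKO libraries of Jak3 spread on both sides of the WT libraries, and its estimate turned to -0.03 with the myeloid level as a term (limma adjusted p = 0.873).

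Jak2, the member with 2 seed matches, had 8181, 8693, 8203, 8308 and 9255 normalized counts in the cKO libraries and 7835, 8762, 7514 and 6398 in the WT libraries. WT replicate 2 lay inside the cKO range and WT replicate 4 was the lowest of both groups. The estimate was a log2 change of 0.17 (standard error 0.08, 95% interval -0.0041 to 0.34, limma adjusted p = 0.324). Without WT replicate 4 it was 0.09 (limma adjusted p = 0.625), and with the mean level of the immediate early and stress genes as a term it was 0.19 (limma adjusted p = 0.137).

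**Figure D4:**
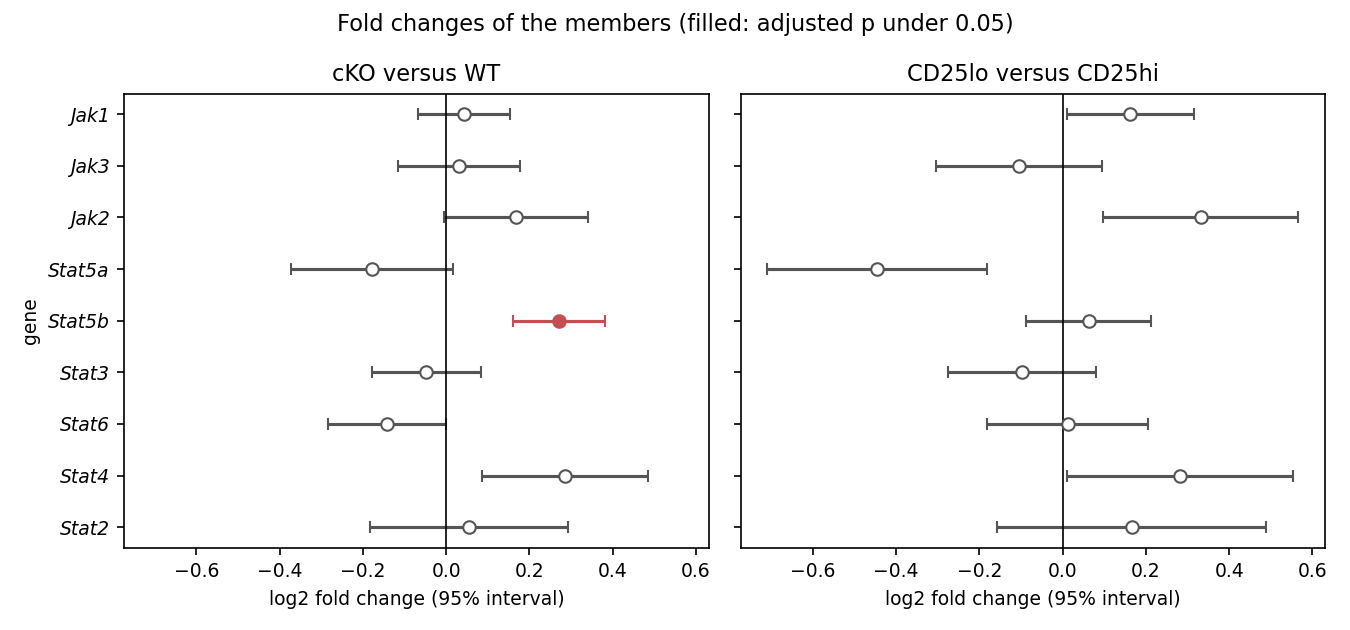
Log2 fold changes of the 9 members with 95% intervals (x axis) in cKO versus WT Tregs and in CD25lo versus CD25hi Tregs from the limma fit over 14 libraries; filled points passed an adjusted p under 0.05. Stat5b in cKO Tregs, at 0.27, is the only filled point, and Stat5a in CD25lo Tregs has the lowest estimate, -0.44.

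In WT Tregs sorted on CD25, both CD25lo libraries had less Stat5a and more Jak2 than any CD25hi library, but none of the 9 members was called by limma, against 1.62% of all genes tested. Of the 5830 genes with a mean of at least 1000 normalized counts, 2.9% were called. At an unadjusted p under 0.05 there were 4 (Jak1, Jak2, Stat4 and Stat5a), against 13.5% of all genes. edgeR's quasi-likelihood test called 0, against 1.37% of all genes, and DESeq2 called Stat5a, against 3.41% of all genes in that test. The libraries did not overlap for 5 of 9 members, higher in CD25lo Tregs for Jak1, Jak2 and Stat5b and lower for Jak3 and Stat5a, against 24.5% of all genes tested. With 2 libraries against 3, many genes separate in this way. The median log2 fold change of the members was 0.06, and that of all genes tested was 0.

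Stat5a had 3777 and 4047 normalized counts in the CD25lo libraries and 5080.3, 5363 and 5530.1 in the CD25hi libraries. Both CD25lo libraries lay below the 3 CD25hi libraries by more than the spread within either group. The estimate was a log2 change of -0.44 (standard error 0.13, 95% interval -0.71 to -0.18, limma adjusted p = 0.0865), and the DESeq2 adjusted p was 0.0248. Because the 4 groups share 1 estimate of the spread, the limma adjusted p was 0.0165 without WT replicate 2 and 0.0348 without WT replicate 4, with the same fold change. Stat5b differed little, with 11586 and 11438 normalized counts in CD25lo and 10579, 11156 and 11352 in CD25hi libraries, a log2 change of 0.06 (standard error 0.07, 95% interval -0.09 to 0.21, limma adjusted p = 0.76).

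Stat5b accordingly made up 69.6 and 67.8% of the STAT5 transcripts per kb in the CD25lo libraries and 60.8, 60.8 and 60.5% in the CD25hi libraries. The log2 ratio of Stat5b to Stat5a was 1.56 ± 0.08 (n = 2, SD) in CD25lo and 1.05 ± 0.01 (n = 3, SD) in CD25hi Tregs, a difference of 0.51. An exact two-sided permutation test gave p = 0.1, the smallest that 2 against 3 libraries allow (adjusted over 3 values 0.300). The log2 of the summed STAT5 counts differed by -0.08 (exact permutation p = 0.200, adjusted 0.300), and the ratio to Stat3 differed by 0.01 (exact permutation p = 1).

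Jak2 had 7286 and 7474 normalized counts in the CD25lo libraries and 5803, 6568 and 5291 in the CD25hi libraries, without overlap. The estimate was a log2 change of 0.33 (standard error 0.11, 95% interval 0.10 to 0.57, limma adjusted p = 0.164), and 0.31 with the immediate early and stress level as a term (limma adjusted p = 0.105). Jak1 had 39844 and 37613 in the CD25lo and 33372, 35854 and 34563 in the CD25hi libraries, a log2 change of 0.16 (standard error 0.07, 95% interval 0.01 to 0.31, limma adjusted p = 0.326). Jak3, in contrast, had 12657 and 12043 in the CD25lo and 13439.5, 13065 and 13301 in the CD25hi libraries, a log2 change of -0.10 (standard error 0.09, 95% interval -0.30 to 0.10, limma adjusted p = 0.689).

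Of the remaining STAT factors, Stat4 had 2409.5 and 2917 normalized counts in the CD25lo and 2088, 2563 and 1932 in the CD25hi libraries, and the highest CD25hi library exceeded the lower CD25lo library. Its estimate was a log2 change of 0.28 (standard error 0.13, 95% interval 0.01 to 0.55, limma adjusted p = 0.344). Stat2 had 5271 and 4318 in the CD25lo and 4116, 4214 and 4436 in the CD25hi libraries, a log2 change of 0.17 (standard error 0.15, 95% interval -0.16 to 0.49, limma adjusted p = 0.698). With 2 CD25lo libraries these estimates depend on each of them: without CD25lo replicate 1 they were 0.42 for Stat4 and 0.02 for Stat2, and without CD25lo replicate 2 they were 0.15 and 0.31, and none passed. The CD25lo and CD25hi libraries of Stat3 and of Stat6 overlapped. Stat3 had 11261 and 12117 normalized counts in the CD25lo and 11766, 13675 and 12124 in the CD25hi libraries. Stat6 had 12029.5 and 11560.1 in the CD25lo and 11506, 13101 and 10613 in the CD25hi libraries. Both estimates were close to 0, with log2 fold changes of -0.10 (limma adjusted p = 0.668) for Stat3 and 0.01 (limma adjusted p = 0.993) for Stat6.

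The 2 comparisons share no library, although the animals may be shared, and the difference between their effects was tested in the same limma fit. No member passed, against 1.03% of all genes tested. At an unadjusted p under 0.05 there was 1, Stat5b, against 13.8% of all genes. edgeR's quasi-likelihood test and DESeq2 each called 0 as well. The effect on Stat5b was larger in cKO versus WT by 0.21 on the log2 scale (95% interval 0.02 to 0.40, limma adjusted p = 0.305). For Stat5a the effect in cKO versus WT exceeded that in CD25lo versus CD25hi by 0.27 (95% interval -0.06 to 0.59, limma adjusted p = 0.474).

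The partners and targets of the JAK and STAT proteins were taken from 7 lists with 79 genes in all, each of which was tested. These lists were chosen with earlier results of these data known. In cKO Tregs 6 of the 79 rose and 6 fell, against 2.04% and 1.48% of all genes tested, and in CD25lo Tregs 1 rose and 8 fell, against 0.61% and 1.01%. Il2ra, the gene of the sorted protein, is among the 8. Abundant genes passed more often in these data: of 5830 genes with a mean of at least 1000 normalized counts, 7.72% passed in cKO and 2.90% in CD25lo Tregs.

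Receptors upstream of the kinases changed in both directions, although no gene of the 7 lists passed as higher in cKO Tregs in the fit with a term for sex. Of 8 genes for receptors with the common gamma chain, 1 rose and 1 fell in cKO Tregs, Il7r and Il2ra. The shares over all genes tested were 2.04% higher and 1.48% lower in cKO Tregs, and 0.61% higher and 1.01% lower in CD25lo Tregs. In CD25lo Tregs Il2ra, the gene of the sorted protein, and Il2rb fell, and Il9r was called higher (limma adjusted p = 0.0437). edgeR's quasi-likelihood test called no gene of the 7 lists higher in CD25lo Tregs. Il7r, the alpha chain of the IL-7 receptor, had 11641 ± 1294 normalized counts (mean ± SD) in cKO and 5779 ± 1062 in WT Tregs (limma adjusted p = 3.3e-05). Il2rb, the chain that IL-2 and IL-15 receptors share, had 28102 ± 58.3 in CD25lo and 54368 ± 1283 in CD25hi Tregs (limma adjusted p = 1.0e-06), and changed by -0.01 on the log2 scale in cKO against WT Tregs (limma adjusted p = 0.969). Of 13 genes for other receptors that use JAK kinases, Il10ra and Ifngr1 rose and Il6ra fell in cKO Tregs, and none passed in CD25lo Tregs. Ifngr1, the ligand-binding chain for interferon gamma, had 9988 ± 1232 normalized counts in cKO and 6917 ± 1309.9 in WT Tregs.

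Of 18 inhibitors of JAK and STAT proteins, Socs2 and Socs1 fell in cKO Tregs and Socs2 and Cish in CD25lo Tregs, and none rose in either. Over all genes tested, 2.04% rose and 1.48% fell in cKO Tregs, and 0.61% rose and 1.01% fell in CD25lo Tregs. Socs2 had 611 ± 53.2 normalized counts (mean ± SD) in cKO, 1658 ± 269 in WT, 1045 ± 67.1 in CD25lo and 2449 ± 348 in CD25hi Tregs. Cish, a feedback inhibitor that STAT5 induces, had 5293 ± 247 in CD25lo and 10550.2 ± 1084 in CD25hi Tregs (limma adjusted p = 3.3e-04).

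Of 18 genes known to respond to STAT5, which include several of these receptors and inhibitors, 1 rose and 5 fell in cKO Tregs and 7 fell in CD25lo Tregs. Of all genes tested, 2.04% rose and 1.48% fell in cKO Tregs, and 1.01% fell in CD25lo Tregs. Il2ra, among the 7, encodes the protein on which the CD25lo and CD25hi Tregs were sorted, so its fall is not a separate result. Ccnd3, a cyclin of the G1 phase, was the one that rose in cKO Tregs, and Il2ra, Socs1, Socs2, Mcl1 and Myc fell there. The median log2 fold change of the list was -0.21 in cKO and -0.45 in CD25lo Tregs, beside 0.05 and 0 over all genes tested. Because the list was chosen with earlier results of these data known, its counts and medians are a description and not separate support. Myc, a growth regulator, changed by -0.54 on the log2 scale in cKO (limma adjusted p = 7.6e-04) and by -0.57 in CD25lo Tregs (limma adjusted p = 0.0116).

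Calls in the lists for the other STAT factors stand beside 3.52% of all genes tested in cKO and 1.62% in CD25lo Tregs. Among genes with a mean of at least 1000 normalized counts these shares were 7.72% and 2.9%. The lists are too short for their counts to be told from these shares. Of 10 genes known to respond to STAT3, only Bcl6 passed, with 2129 ± 142 normalized counts in cKO and 1458 ± 101 in WT Tregs, a log2 change of 0.55 (standard error 0.09, limma adjusted p = 0.00292). Of 13 targets of ISGF3, the complex that holds STAT2, none passed in either comparison, and the medians were -0.12 in cKO and 0.17 in CD25lo Tregs. Of 9 genes of STAT4 and STAT6 responses, only Gata3 passed, in cKO Tregs, with a log2 change of 0.45 (standard error 0.10, limma adjusted p = 0.0176). With a term for sex, 3 of the 79 genes passed in cKO versus WT, all of them lower, against 0.135% of all genes in that fit.

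**Figure D5:**
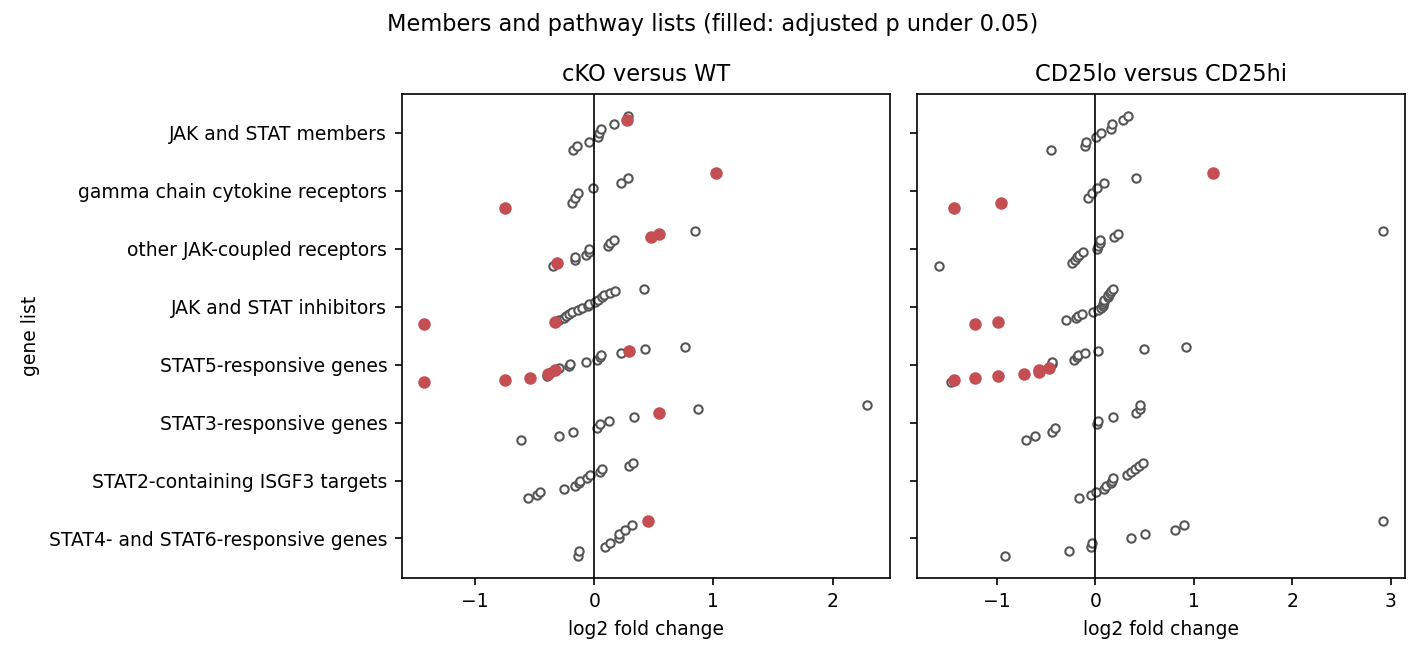
Log2 fold changes (x axis) of the 9 members and of the genes in 7 lists of JAK and STAT partners and targets (y axis), in cKO versus WT and in CD25lo versus CD25hi Tregs; each point is a gene, and filled points passed a limma adjusted p under 0.05. Of the 18 STAT5-responsive genes, 5 filled points lie below 0 in cKO and 7 in CD25lo Tregs, among the 7 Il2ra, the gene of the sorted protein.

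The genes whose pattern was most like that of Stat5b over the 14 libraries were Polr2m, Thy1 and Smap2, chosen by the smallest mean absolute difference in log2 level after each gene was centred, among 5829 genes with a mean of at least 1000 normalized counts. The differences were 0.04, 0.05 and 0.05 on the log2 scale, while Stat5b itself spanned 0.41. Thy1, which encodes a surface protein of T cells, had 30420.3 ± 2036 normalized counts in cKO and 25158 ± 497 in WT Tregs. The points share the groups that separate Stat5b, so this likeness is a description.

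The letters TTCNNNGAA, the palindrome that STAT factors bind, were searched on both strands of RefSeq promoter windows of 300 bases, 250 before and 50 after each start (GRCm38.p6). All 9 members had at least 1 window, and none of these windows held the letters, against 2726 of 32851 windows of all genes (8.30%). This says only that these letters are absent from the windows.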

How the data were processed

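The 14 Treg libraries (cKO 5, WT 4, CD25hi 3, CD25lo 2) were sequenced as single-end reads of 50 bases. The authors aligned them with STAR 2.7.2b to GRCm38 (Ensembl 78) and deposited counts per gene divided by DESeq2 (1.24.0) size factors, a normalized signal rounded to 1 decimal. The counter and its strand setting are not given in the sources used here. A size factor was estimated for each library from the step between its own values. Multiplying back by these estimates gave whole reads for at least 99.97% of values within 0.055 normalized counts. The authors' own comparison columns (fold changes, p-values), stabilized values and GC content were not used. Groups were taken from the labels.

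limma 3.58.1 was fitted on log2(value + 1) over all 14 libraries with 4 group means, after a filter of at least 10 in 2 libraries, as the deposited values are not counts. edgeR 4.0.16 and DESeq2 1.42.0 on the recovered reads, limma-voom, other filters, pseudocounts, covariates and leaving out each library were alternatives; the myeloid term was chosen after seeing the data. The test was tested on simulated data. Single values used exact two-sided permutation tests. The members, gene lists and STAT5 ratios were chosen with earlier results of these data known. Genes named from the lists of partners and targets were among the 4 of their list with the smallest unadjusted limma p in either comparison. Ccnd3 and Mcl1 were named after their values were seen. Depth was 30055573 to 35226685 reads in genes. Same-numbered cKO and WT libraries did not deviate together (correlations of deviations from the group means of -0.409 to -0.081). The 2 CD25hi and CD25lo pairs gave 0.173 and -0.055, and the labels do not say that a number marks an animal, so the numbers were not used as pairs.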

Additional observations from a re-analysis of the deposited data

How the results depend on the processing

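The rise of Stat5b in cKO Tregs kept its direction in every alternative run and its call in all but the fit with sex as a term (0.34, limma adjusted p = 0.190), with log2 fold changes from 0.25 to 0.30 when 1 library was left out (limma adjusted p = 0.00695 to 0.0295). The members called in cKO versus WT numbered 0 with sex as a term and 3 at an unadjusted p under 0.05, and 1 to 2 when 1 library was left out, where Stat5a joined without WT replicate 2. In CD25lo versus CD25hi they numbered 1 with DESeq2, 4 at an unadjusted p and 0 to 1 when 1 library was left out, where the call was Stat5a without WT replicate 2 or WT replicate 4. Members whose effects differed numbered 1 at an unadjusted p. The pathway genes called in cKO versus WT numbered 12, and 3 with sex as a term, 30 at an unadjusted p and 9 to 14 when 1 library was left out. In CD25lo versus CD25hi they numbered 9, and 17 with DESeq2, 14 with the immediate early level as a term, 23 at an unadjusted p and 6 to 13 when 1 library was left out. The causes were not tested.

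When 1 library was left out, the cKO versus WT differences were 0.34 to 0.59 for the log2 ratio of Stat5b to Stat5a, 0.13 to 0.16 for the log2 sum and 0.17 to 0.23 for the ratio to Stat3. Their exact permutation p-values, adjusted over 3 values, then reached 0.114, 0.0857 and 0.0857, with fewer splits to draw on, and stayed under 0.05 in 1, 3 and 3 of 9 runs. In CD25lo versus CD25hi, the ratio to Stat3 ranged from -0.0441 to 0.0606 and turned to -0.0441 without CD25hi replicate 2 and to -0.0337 without CD25lo replicate 1.

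Estimates of members that passed no test and turned sign were, in cKO versus WT, Jak3 with the myeloid term (-0.0284) and without cKO replicate 3 (from -0.017 to 0.0686 when 1 library was left out), Stat3 with sex as a term (0.0032), and Stat2 with sex as a term (-0.0314), with the myeloid term (-0.0443) and without WT replicate 2 (from -0.1003 to 0.1448 when 1 library was left out). In CD25lo versus CD25hi this held for Stat6 with edgeR (-0.0017), with the replicate block (-0.0029) and without CD25hi replicate 3 or CD25lo replicate 1 (from -0.0581 to 0.0938 when 1 library was left out).

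The deviations of same-numbered cKO and WT libraries correlated between -0.409 and -0.081, and those of CD25hi and CD25lo libraries at 0.173 for replicate 1 and -0.055 for replicate 2, so that pairing by number was not shown in the first comparison and could not be settled from 2 pairs in the second. With the replicate number as a block, 290 genes were called in cKO versus WT and 105 in CD25lo versus CD25hi, in place of 572 and 263, and Stat5b had a log2 fold change of 0.28 (limma adjusted p = 0.0379).

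Sex, the small number of CD25lo libraries and the state of WT replicate 4 limit these comparisons. RNA levels do not give protein or phosphorylation, and shared sequence between Stat5a and Stat5b leaves some of their reads uncertain.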

Other observations

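Stat2 and Stat5a varied most between WT libraries, with coefficients of variation of 20.2% and 17.1%, and varied less in cKO Tregs, at 7.06% and 5.19%. Stat5b had coefficients of 5.38% in WT and 1.87% in cKO Tregs, and Jak1 of 3.33% and 4.29%. The spread was larger in cKO than in WT Tregs for 4 of the 9 members, Jak1, Jak3 (6.2% in WT and 10.1% in cKO), Stat3 and Stat4. WT replicate 2 was the lowest WT library for Stat2, at 2759 against 4049 or more in the others, and for Stat5a, at 3782. The WT libraries came from both sexes and the cKO libraries from females only. The difference in spread was not tested.

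Bulk WT Tregs hold cells on both sides of the CD25 gate. For Jak2 the WT mean of 7627 normalized counts lay above the means of both CD25lo (7379.8) and CD25hi Tregs (5887), although WT replicate 4, at 6398, lay between them. The WT mean of Stat6, 10862, lay below those of CD25hi (11740) and CD25lo Tregs (11795), and that of Stat2, 3880, below 4255 and 4794. The WT libraries of both overlapped the CD25hi libraries. For Stat5a the WT mean of 4872 lay between those of CD25lo (3912) and CD25hi Tregs (5324), as the WT mean of each remaining member did between its own. The immediate early and stress level of WT replicate 4 (mean log2 11.69) was close to that of the sorted libraries (11.47 to 12.03), and its part in these levels was not tested.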
